A study of Mus musculus with 12 samples.

Results

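The 31 genes described here encode the sensors, chaperones, folding enzymes and disposal machinery that handle proteins in the endoplasmic reticulum (ER), and many of them are induced by the unfolded protein response. A probe set was taken as a member when its gene symbol in the array's probe annotation was on this list of 31 genes. All 31 genes were measured, by 35 of the 35556 probe sets, and each was followed through the probe set with the highest mean, as were the 19938 genes tested in all. Intensities of different probe sets were not compared as transcript levels. Of the 31 members, 30 had a mean log2 intensity above the median of all probe sets, and Derl3, a derlin of secretory cells, lay below it.

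The cells were myeloid progenitors grown from c-Kit+ bone marrow of mice with CreER, a recombinase switched on by tamoxifen, and either an intact Zfx allele (Zfx wt/y CreER) or a floxed allele (Zfx fl/y CreER). Zfx encodes an X-linked zinc finger transcription factor, and Myc is the growth-promoting transcription factor delivered by virus. All mice received tamoxifen by gavage at 5 mg a day for 3 days, so the Zfx wt controls were exposed to tamoxifen and active Cre too. The cells were infected with a retrovirus carrying Myc and a green fluorescent protein (GFP) marker or with a control virus carrying the GFP marker alone. After 48 hours in culture GFP+ cells were sorted, and RNA was taken after another 4 days in medium with 20% serum and interleukin 3, interleukin 6 and stem cell factor at 10 ng/mL each. The 4 groups, GFP virus with Zfx wt, GFP virus with Zfx ko, Myc virus with Zfx wt and Myc virus with Zfx ko, had 3 arrays each. The study asked how loss of Zfx alters the expression changes that Myc induces. The promoter driving CreER, the ages of the mice and whether replicates were separate animals or cultures are not stated in the labels; p-values therefore describe the spread among these arrays, which may be technical.

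When unfolded proteins accumulate in the ER, the membrane sensors Ern1 (also called IRE1) and Atf6 are released from the chaperone Hspa5 (BiP). Ern1 then splices the Xbp1 messenger RNA, and the resulting factor, together with cleaved Atf6, switches on genes for chaperones and for ER-associated degradation, in which misfolded glycoproteins are recognised, carried back to the cytosol and ubiquitinated. In blood cell precursors this machinery serves the heavy synthesis of granule proteins and receptors, and Myc is known for raising the synthesis of proteins in general. The arrays measured total Xbp1 messenger RNA and did not separate its spliced form.

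The Myc probe set was 1.74-fold higher with Myc virus in Zfx wt cells (adjusted p = 0.000724) and 1.87-fold higher in cells labelled Zfx ko (adjusted p = 0.000342, limma, as for every adjusted p below). The Zfx probe set was not lower in the groups labelled Zfx ko: its mean intensity was 946 ± 72.9 (SD, n = 3) in wt and 1021 ± 64.9 in ko with GFP virus, and 992 ± 26.4 in wt and 1048 ± 63.2 in ko with Myc virus (adjusted p = 0.619 and 0.789). Which part of the transcript the probe set reads and which part the floxed allele removes are not stated in the labels, so this value does not check the deletion, and the groups are called by their labels. Array medians lay between 127 and 137, and log2 values of replicates correlated at 0.9878 to 0.9957.

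Of the 31 members, 26 had an entry among the RefSeq promoter windows (mouse build GRCm38.p6, 250 bases before to 50 after the annotated start), and Atf6, Hyou1, Manf, Derl1 and Sec61a1 had none. The ER stress element (ERSE), CCAAT and CCACG separated by 9 free bases, is the classical site read by Atf6 and Xbp1 together with the CCAAT-binding factor NF-Y. Searched on both strands, it occurred in the windows of 9 of the 26 members (34.6%) and in 39 of all 32851 windows (0.119%). The shorter ERSE-II, ATTGG, 1 free base and CCACG, occurred in 2 of 26 members (7.69%) against 0.0365% of windows, in Herpud1 and, from position 8 after the start, in Dnajb11. Of the 26 members, 15 had neither element as an exact match in the window. Inexact or more distant sites were not searched. The ERSE matches and the Herpud1 ERSE-II are shown because both elements were more frequent in member windows than in all windows. That difference is a description and no test, since the list was made of genes of this response. A member counted once if any of its windows matched, whereas the share over all windows counted single windows. They are written 5′ to 3′ on the strand of the gene with up to 10 bases on either side, and capitals mark the whole match, which runs from CGTGG to ATTGG where it lies in reverse.
Hspa5: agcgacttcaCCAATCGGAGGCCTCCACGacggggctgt
Hsp90b1, upstream match: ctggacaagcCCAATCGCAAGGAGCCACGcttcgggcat
Hsp90b1, downstream match: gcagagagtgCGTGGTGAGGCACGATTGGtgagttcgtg
Dnajc3: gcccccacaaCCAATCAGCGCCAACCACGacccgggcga
Creld2: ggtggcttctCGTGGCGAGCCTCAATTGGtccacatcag
Calr: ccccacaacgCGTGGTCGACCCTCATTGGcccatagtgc
Canx: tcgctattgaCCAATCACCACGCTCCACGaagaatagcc
Pdia6: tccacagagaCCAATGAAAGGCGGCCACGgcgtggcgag
Syvn1: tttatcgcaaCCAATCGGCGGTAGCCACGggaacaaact
Derl3: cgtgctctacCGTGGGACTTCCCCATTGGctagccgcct
Herpud1, ERSE-II: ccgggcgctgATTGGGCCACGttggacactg

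The matches lay between position -212 (Hsp90b1) and position -26 (Syvn1) relative to the start. Other motifs searched on both strands were CCACG, found in 22 of 26 member windows (84.6%) and 32.8% of all windows; CCAAT, found in 21 of 26 (80.8%) and 37.4%; the E-box CACGTG that Myc and Max bind, found in 3 of 26 (11.5%; Dnajb9, Calr and Derl3) and 7.15%; and AGGCCT, the core of the motif known for Zfx, found in 3 of 26 (11.5%; Hspa5, Pdia3 and Sel1l) and 10.3%. CCACG and CCAAT are parts of the ERSE and of ERSE-II, so those counts overlap. The core of the Xbp1 element, TGACGTGG, was in 0 member windows and 0.676% of all windows. In Hspa5 the AGGCCT match began at position -57, inside the spacer of the ERSE.

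The bases before the start of Hspa5, the central ER chaperone, and of Edem1, the member that fell most clearly with Myc, are given below. They show a window with an exact ERSE and another with none. Capitals mark each CCAAT and each CCACG on either strand. Hspa5 is at chr2:34771840-34772089 and Edem1 at chr6:108828391-108828640, both on the plus strand. The annotated span of Edem1 begins at 108824045, so its window lies inside that span. The bases before the beginning of the span were not searched.
Hspa5: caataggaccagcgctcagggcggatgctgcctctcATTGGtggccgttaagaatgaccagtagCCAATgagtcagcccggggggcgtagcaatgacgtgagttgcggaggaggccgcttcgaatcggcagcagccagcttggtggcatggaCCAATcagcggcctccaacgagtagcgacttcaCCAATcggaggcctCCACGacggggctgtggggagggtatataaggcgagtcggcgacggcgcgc
Edem1: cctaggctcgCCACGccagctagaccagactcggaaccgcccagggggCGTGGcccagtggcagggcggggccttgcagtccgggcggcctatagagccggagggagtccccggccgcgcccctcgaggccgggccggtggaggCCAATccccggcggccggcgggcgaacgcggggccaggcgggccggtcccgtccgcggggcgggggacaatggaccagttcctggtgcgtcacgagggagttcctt

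With Myc virus, 7 of the 31 members fell and 0 rose when the change was averaged over both genotypes (adjusted p under 0.05). The 7 were Edem1, Sel1l and Os9 of ER-associated degradation, the Hspa5 partners Dnajc3 and Dnajc10, the transcription factor Xbp1 and the lectin chaperone Calr, with falls of 1.12-fold to 1.36-fold, each seen in 6 of 6 same-numbered pairs of arrays. The pairs hold the same arrays as the fit. In every pair 11 members were lower and 0 higher, beside 13.7% and 18.5% of all genes. For genes above the median intensity these shares were 21.7% and 31.1%. Among all 19938 genes, 8.07% fell and 13.2% rose in this comparison, and among the 10741 genes above the median intensity 13.9% fell and 23.2% rose, against 22.6% and 0% of the members. With arrays centred on their medians 4 members fell and 0 rose (6.85% and 13.6% of all genes), with Xbp1, Dnajc10 and Sel1l no longer passing. With the replicate number as a block, which treats same-numbered arrays as pairs, 9 fell and 1 rose (13.6% and 18.4% of all genes), Herpud1 and Dnajb9 joining the falls and Edem3 rising. The median member change was -0.08 on the log2 scale, with 23 of 31 estimates below 0, whereas the median of all genes was 0.003 with 48.4% below 0. In the genotypes taken singly, 1 member fell in Zfx wt cells (3.11% of all genes) and 4 fell in cells labelled Zfx ko (4.59% of all genes), and 0 rose in either (6.17% and 8.58% of all genes). With the same block 3 members fell and 1 rose in wt (8.25% and 12.2% of all genes), and 9 fell and 0 rose in ko (10.4% and 14.5%). The 3 Myc arrays lay wholly below the 3 GFP arrays in 7 members in wt and 6 in ko (9.44% and 9.88% of all genes), and wholly above them in 3 in wt and 0 in ko (15.1% and 15.6%).

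**Figure D1:**
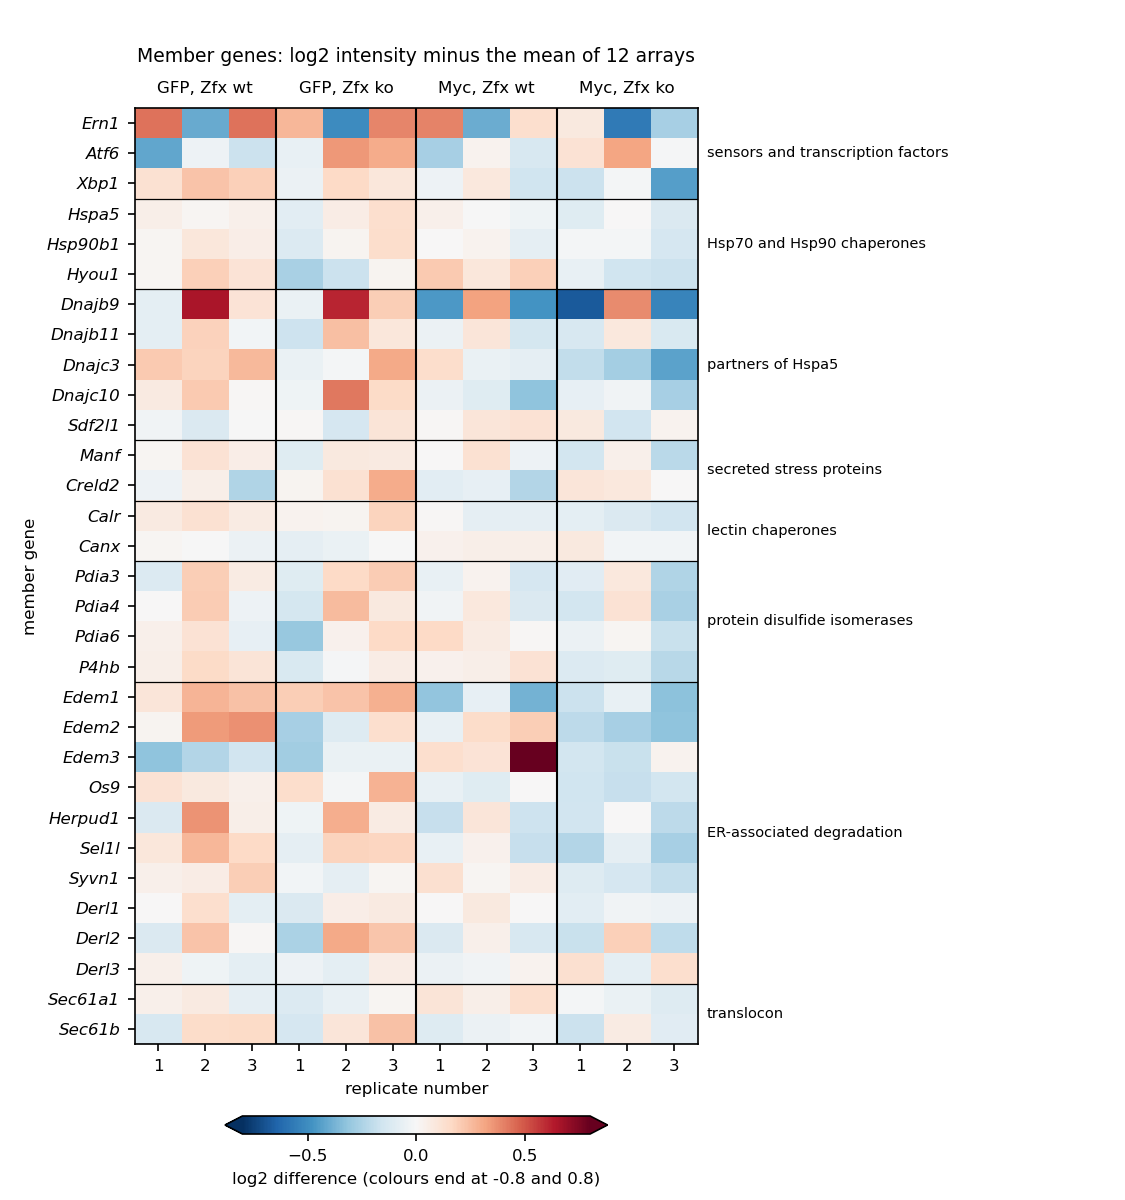
Heat map of the 31 members (rows, grouped by role) on the 12 arrays (columns, by group and replicate number). Colour gives the log2 intensity minus the mean of that gene over the 12 arrays. Edem1 is above its mean on all 6 GFP arrays and below it on all 6 Myc arrays, and Dnajb9 is highest on the arrays with replicate number 2 in all 4 groups.

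Edem1, a lectin that extracts misfolded glycoproteins from the folding cycle, read 4798, 5405 and 5273 with GFP virus and 3603, 4277 and 3453 with Myc virus in Zfx wt cells. In cells labelled Zfx ko it read 5133, 5247 and 5458 with GFP virus and 3974, 4298 and 3572 with Myc virus. Every Myc array was below every GFP array, and the lowest values were those of replicate number 3 with Myc virus. Edem1 was 1.36-fold lower with Myc (95% interval 1.23 to 1.5, adjusted p = 0.000879), 1.37-fold lower in wt (adjusted p = 0.0129) and 1.34-fold lower in ko (adjusted p = 0.0135). The mean over genotypes passed under all 18 alternative settings. The single-genotype calls did not: the wt call was lost without replicate 3 of GFP virus (adjusted p = 0.0570), replicate 1 of Myc virus (0.0503) or replicate 3 of Myc virus (0.0605), and the ko call without replicate 3 of Myc virus (0.0599).

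Os9, which hands misfolded glycoproteins to the retrotranslocation complex, read 2033, 1986 and 1937 with GFP virus and 1805, 1758 and 1883 with Myc virus in wt cells. In ko cells it read 2072, 1861 and 2277 with GFP virus and 1686, 1650 and 1695 with Myc virus. The Myc arrays lay below the GFP arrays of their genotype in both cases. Os9 was 1.16-fold lower over both genotypes (95% interval 1.08 to 1.25, adjusted p = 0.00929) and 1.23-fold lower in ko (adjusted p = 0.0173); the ko call was lost without replicate 1 or 3 of GFP virus (adjusted p = 0.0532 and 0.0520) or replicate 3 of Myc virus (0.0538). Sel1l, the scaffold of the ubiquitin ligase Syvn1, read 2000, 2256 and 2099 with GFP virus and 1808, 1923 and 1654 with Myc virus in wt cells, and 1789, 2124 and 2116 against 1601, 1786 and 1561 in ko cells. Its groups did not overlap in either genotype, with 1786 and 1789 as the closest values in ko. It was 1.20-fold lower over both genotypes (95% interval 1.09 to 1.32, adjusted p = 0.0127). With the block the fall also passed in wt (adjusted p = 0.0279) and in ko (0.0107), and with arrays centred on their medians the mean over genotypes did not (0.0545).

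The remaining degradation genes did not pass in that comparison. Syvn1, the ligase itself, was 1.05-fold lower (adjusted p = 0.280), Edem2 1.12-fold lower (0.223) and Derl1, a derlin of the retrotranslocation channel, 1.02-fold lower (0.861). Derl2 was 1.09-fold lower (0.558) and Derl3 1.03-fold higher (0.667). Herpud1, an ER membrane protein that gathers the ligase complex, was 1.15-fold lower in 6 of 6 pairs (adjusted p = 0.177) and fell with the block (adjusted p = 0.00443; in ko alone 0.0205).

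Edem3, another glycoprotein-degradation lectin, had the highest estimate of the members with Myc in wt, and a single array set much of its size. It read 755, 803 and 850 with GFP virus and 1037, 1016 and 2080 with Myc virus in wt cells, and 780, 909 and 910 against 852, 836 and 960 in ko cells. The 3 Myc arrays were above the GFP arrays in wt, and the groups overlapped in ko. The wt difference was 1.62-fold (95% interval 1.15 to 2.29, adjusted p = 0.0876; with the block 0.0192), and without replicate 3 of Myc virus it was 1.28-fold (adjusted p = 0.0652); without replicate 2 of Myc virus it passed (adjusted p = 0.0491). Over both genotypes Edem3 was 1.29-fold higher (adjusted p = 0.154), which passed with the block (0.0482).

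Among the sensors, Xbp1 read 8108, 8757 and 8529 with GFP virus and 7261, 7895 and 6673 with Myc virus in wt cells, and 7231, 8336 and 7933 against 6619, 7385 and 5508 in ko cells. The wt groups did not overlap, whereas in ko the highest Myc array exceeded the lowest GFP array. Xbp1 was 1.19-fold lower over both genotypes (95% interval 1.06 to 1.33, adjusted p = 0.0358). With the block the fall also passed in ko alone (adjusted p = 0.0287). The call for the mean held in 3 of 12 fits that left out an array, those without replicate 1 of GFP virus in ko, replicate 2 of Myc virus in ko or replicate 2 of Myc virus in wt, and was lost in the other 9 (adjusted p = 0.0508 to 0.0895), as it was with arrays centred on their medians (0.0904) or all probe sets fitted together (0.0546). Ern1 ranged from 883 on a Myc array labelled ko to 1763 on a GFP array of wt and was 1.15-fold lower (95% interval 0.825 to 1.61, adjusted p = 0.661), and Atf6 was 1.01-fold higher (0.957).

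Of the genes that work with Hspa5, Dnajc3, a co-chaperone also known as p58IPK that inhibits eIF2-alpha kinases, passed in the mean over genotypes and in ko. It read 1977, 1935 and 2052 with GFP virus and 1883, 1653 and 1627 with Myc virus in wt cells, and 1653, 1696 and 2108 against 1494, 1419 and 1270 in ko cells. The arrays did not overlap in either genotype. Dnajc3 was 1.23-fold lower over both genotypes (95% interval 1.10 to 1.37, adjusted p = 0.0125) and 1.30-fold lower in ko (adjusted p = 0.0317); the ko call was lost without replicate 3 of GFP virus (0.0903), replicate 2 of Myc virus (0.0640) or replicate 3 of Myc virus (0.128), or with all probe sets fitted together (0.0532). Its 2 probe sets held identical values and were counted once.

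Dnajc10, a reductase that opens disulfides of proteins bound for degradation, read 985, 1084 and 945 with GFP virus against 907, 874 and 749 with Myc virus in wt cells, and 914, 1254 and 1041 against 896, 920 and 778 in ko cells. The groups were apart in wt and overlapped in ko, where 920 and 914 crossed. It was 1.21-fold lower over both genotypes (95% interval 1.06 to 1.38, adjusted p = 0.0402), and the block added a call in ko alone (0.0347). The call for the mean held without replicate 1 of GFP virus in ko, replicate 2 of Myc virus in ko or replicate 1 of Myc virus in wt, and was lost in the other 9 of 12 fits without 1 array (adjusted p = 0.0538 to 0.0986), with arrays centred on their medians (0.0928) and with all probe sets fitted together (0.0613).

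Dnajb9 (ERdj4), which returns Hspa5 to Ern1 and is itself a target of Xbp1, read 1291, 2137 and 1472 with GFP virus and 991, 1700 and 976 with Myc virus in wt cells. In ko cells it read 1312, 2078 and 1563 with GFP virus and 855, 1771 and 943 with Myc virus. The groups overlapped because the arrays with replicate number 2 were highest in every group, yet each Myc array was below the GFP array of its own number. Dnajb9 was 1.39-fold lower (95% interval 0.985 to 1.97, adjusted p = 0.190), and with the block the same fall passed (adjusted p = 0.000325; in wt 0.00833 and in ko 0.00256). Dnajb11, an Hspa5 co-chaperone for nascent proteins, was 1.06-fold lower (adjusted p = 0.620) and Sdf2l1 1.04-fold higher (0.609).

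**Figure D2:**
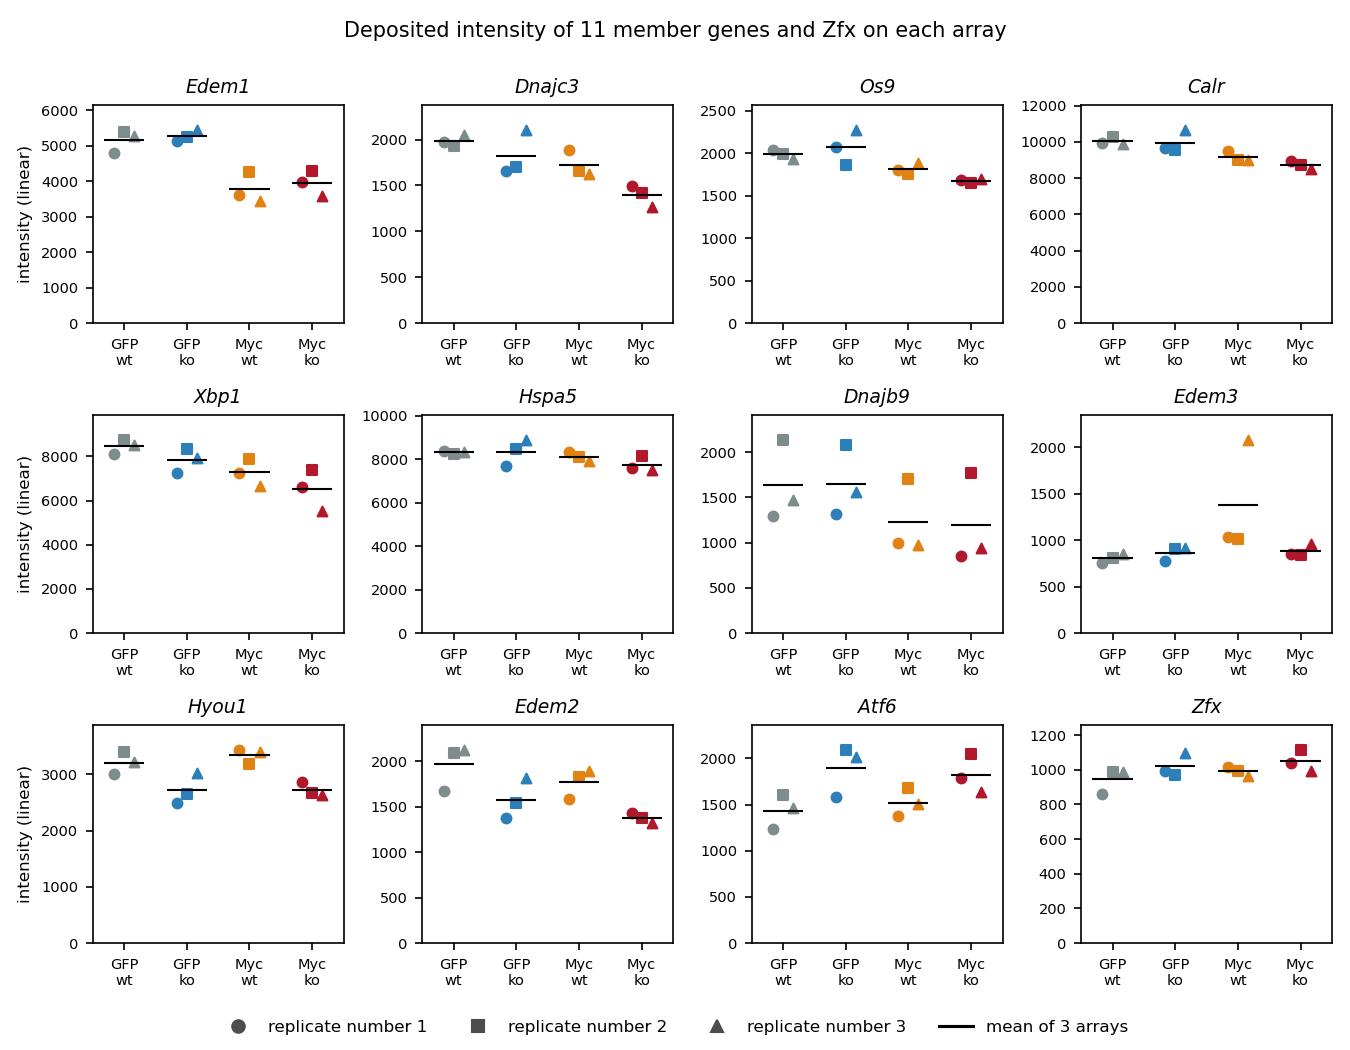
Deposited intensity (linear scale from 0) of 11 members and of Zfx on each of the 12 arrays, by group; marker shape gives the replicate number and the horizontal line the mean of 3 arrays. Edem1 shows no overlap between viruses, the 2080 of Edem3 belongs to 1 array, and Hyou1 is lower in the groups labelled ko.

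Calr (calreticulin), the soluble lectin chaperone of the ER lumen, read 9917, 10270 and 9903 with GFP virus and 9487, 8971 and 8990 with Myc virus in wt cells, and 9639, 9568 and 10670 against 8956, 8713 and 8488 in ko cells. Every Myc array was below every GFP array. The size was small, 1.12-fold over both genotypes (95% interval 1.05 to 1.19, adjusted p = 0.0129), and this call passed under all 18 alternatives. In ko alone Calr was 1.14-fold lower (adjusted p = 0.0469), and that call was lost in each of the 6 fits without an array (adjusted p = 0.0506 to 0.160), with arrays centred on their medians (0.119), among genes above the median intensity alone (0.0513) and with all probe sets fitted together (0.0708). Canx (calnexin), the membrane-bound counterpart of Calr, was 1.04-fold higher over both genotypes (95% interval 0.986 to 1.09, adjusted p = 0.362).

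Hspa5, Hsp90b1, Hyou1 and the disulfide isomerases Pdia3, Pdia4, Pdia6 and P4hb did not pass in any Myc comparison. Hspa5 read 8392, 8222 and 8339 with GFP virus and 8341, 8089 and 7938 with Myc virus in wt cells, and 7666, 8469 and 8899 against 7593, 8136 and 7506 in ko cells. These groups overlapped in both genotypes, and the difference was 1.05-fold lower (95% interval 0.982 to 1.12, adjusted p = 0.353). Hsp90b1 (GRP94) was 1.05-fold lower (adjusted p = 0.418) and Hyou1 (GRP170), a nucleotide exchange factor for Hspa5, 1.02-fold higher (0.817). The disulfide isomerases Pdia3, Pdia4 and P4hb were 1.10-fold, 1.09-fold and 1.06-fold lower and Pdia6 1.01-fold higher (adjusted p = 0.286, 0.459, 0.287 and 0.973). A second, separate probe set of Pdia4 gave a log2 change of 0.025 where the brighter gave -0.12, and neither passed. The secreted stress proteins Manf and Creld2 were 1.06-fold and 1.05-fold lower (0.45 and 0.604). Of the translocon subunits, through which new proteins enter the ER, Sec61a1 was 1.03-fold higher (0.653) and Sec61b 1.09-fold lower (0.345).

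**Figure D3:**
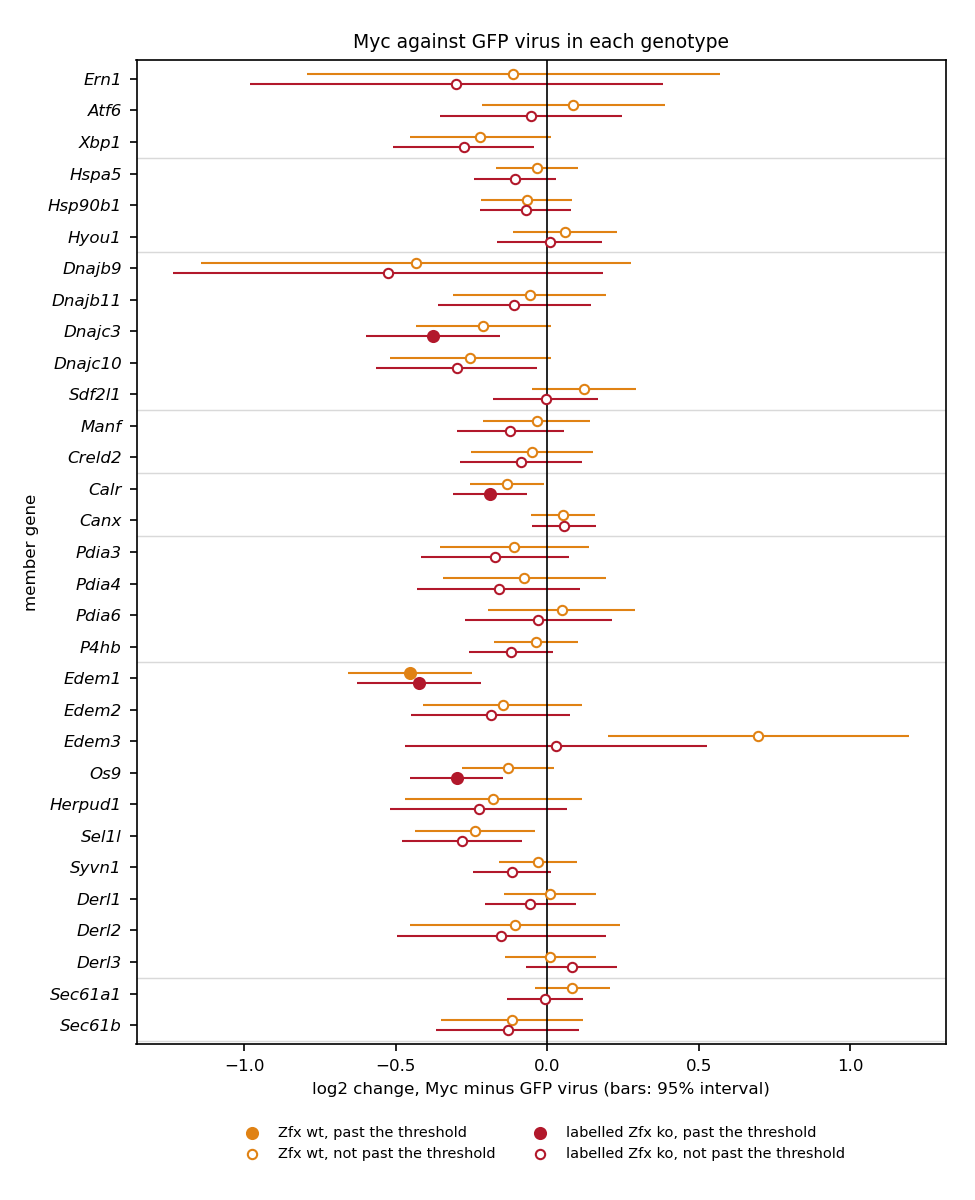
Log2 change with Myc virus (x axis) for the 31 members (y axis, grouped by role) in Zfx wt cells and in cells labelled Zfx ko; points are limma estimates, bars 95% intervals, and filled points passed the threshold. The filled points are Edem1 in both genotypes and Dnajc3, Calr and Os9 in ko, all to the left of 0.

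The size of the Myc change differed between pairs of arrays. In ko, the median over members was 0.007 on the log2 scale in pair 1 with 15 of 31 below 0, -0.08 in pair 2 with 27 below 0, and -0.30 in pair 3 with 29 below 0, where 48.9%, 53.8% and 40.0% of all genes were below 0. In wt it was -0.016, -0.11 and -0.12, with 19, 24 and 20 members and 51.2%, 47.4% and 45.1% of all genes below 0. Without replicate 3 of Myc virus in ko, 0 members passed in ko, and without replicate 3 of GFP virus in ko, 1 did.

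The intensities of some members also varied with replicate number. In 9 of 31 members the array numbered 2 was the highest in all 4 groups, as it was for 11.2% of all genes: Dnajb9, Dnajb11, Herpud1, Derl2, Pdia4, Manf, Sel1l, Xbp1 and Atf6. The geometric means of Dnajb9 were 1095, 1913 and 1206 over the arrays numbered 1, 2 and 3. Ern1 went the other way, with 1598, 945 and 1471, and was lowest on number 2 in all 4 groups. Hspa5 (7989, 8228 and 8155) and Calr (9493, 9363 and 9476) varied little with the number. What the numbers stand for is not stated in the labels.

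Markers of maturing cells moved with Myc as well, where 8.07% of all genes fell and 13.2% rose over both genotypes. Of 14 neutrophil maturation genes, 13 fell with Myc over both genotypes, and their summed intensity ranged over 82530 to 99970 and 80820 to 99740 in the GFP groups (wt and ko) and over 40140 to 57500 and 47550 to 56130 in the Myc groups. Of 13 mast cell and basophil genes 7 fell and 0 rose (10 and 1 with the block). In wt alone 6 fell and 1 rose, and in ko 6 fell and 0 rose. The means of Ms4a2 and Gata2 went up with Myc in wt, from 736 to 1791 and from 1763 to 2731. Of 8 erythroid genes 5 rose, with 1 passing in wt alone and 5 in ko alone. Their summed intensity ranged over 3829 to 4778 and 4392 to 5062 in the GFP groups (wt and ko). In the Myc groups it ranged over 4766 to 6376 and 6011 to 11250. Tfrc alone averaged 3183 and 3123 in the GFP groups and 3875 and 3713 in the Myc groups. Of 5 promyelocyte granule genes 3 fell (4 with the block), among them Ms4a3, a membrane protein of granulocyte precursors (1.3-fold lower, adjusted p = 0.000455), and their summed intensity ranged over 63090 to 69970 and 53830 to 62540 in the GFP groups (wt and ko) and over 55610 to 60610 and 45670 to 54820 in the Myc groups. One gene fell in each of the megakaryocyte (1 of 5), monocyte and macrophage (1 of 8) and stromal (1 of 5) lists, and 2, 4 and 2 with the block. Of 9 plasma cell and B cell genes 1, Sdc1, rose, and 0 of 7 eosinophil genes (2 fell with the block) and 0 of 5 T cell genes passed. In RNA from mixed cells, fewer cells of a type and less RNA per cell cannot be told apart, and the part of these shifts in the members' falls was not tested.

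Loss of Zfx by label was compared within each virus and averaged over both. Over both viruses, Hyou1, Edem2, P4hb and Syvn1 fell and Atf6 rose in the groups labelled ko, each in 6 of 6 pairs. These 4 falls and 1 rise among 31 members (12.9% and 3.23%) stood beside 7.34% of all genes that fell and 4.73% that rose. Among genes above the median intensity the shares were 12.8% and 7.15%. In every pair 6 members were lower and 2 higher, beside 14.4% and 11.6% of all genes. For genes above the median intensity these pair shares were 23.3% and 17.2%. Only 3 members passed, all of them falls, with arrays centred on their medians (7.11% of all genes fell and 3.92% rose) or with all probe sets fitted together, and P4hb and Atf6 were the members lost. The count was 1 without replicate 2 of GFP virus in ko, replicate 3 of GFP virus in wt or replicate 3 of Myc virus in wt, 2 without replicate 3 of Myc virus in ko or replicate 1 of Myc virus in wt, and 3 without replicate 2 of Myc virus in wt. With the block 4 fell and 2 rose (12.5% and 10.5% of all genes). The median member change was -0.034 on the log2 scale, and 24 of 31 estimates were below 0 against 51.3% of all genes. Within a single virus 0 members passed (with GFP virus 2.94% of all genes fell and 1.17% rose, with Myc virus 3.72% and 1.74%), while 4 members with GFP virus and 7 with Myc virus (12.9% and 22.6%) had an unadjusted p under 0.05, as did 14.6% and 15.8% of all genes. With the block, Atf6 rose and Edem2 fell with GFP virus (5.12% and 7.12% of all genes), and Hyou1, P4hb, Edem2 and Syvn1 fell and 0 rose with Myc virus (8.03% and 6.05%). The ko arrays lay wholly below the wt arrays in 1 member with GFP virus and 10 with Myc virus (10.5% and 11.1% of all genes), and wholly above them in 0 and 1 (7.44% and 8.4%).

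Hyou1 read 3015, 3397 and 3213 in wt and 2484, 2644 and 3022 in ko with GFP virus, and 3439, 3178 and 3397 in wt and 2858, 2674 and 2641 in ko with Myc virus. The genotypes overlapped by a narrow margin with GFP virus, where 3022 exceeded 3015, and were apart with Myc virus. Hyou1 was 1.20-fold lower in ko (95% interval 1.11 to 1.31, adjusted p = 0.00976), and this call passed under all 18 alternatives; within the Myc virus groups it reached an adjusted p of 0.0581 (with the block 0.0325).

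Edem2 read 1677, 2093 and 2127 in wt and 1374, 1539 and 1810 in ko with GFP virus, and 1585, 1828 and 1894 against 1427, 1375 and 1321 with Myc virus. Only the Myc groups were free of overlap. It was 1.27-fold lower (95% interval 1.11 to 1.44, adjusted p = 0.0237; with the block 0.0453 within GFP virus and 0.0248 within Myc virus). That call was lost without replicate 2 of GFP virus in ko (0.0522), replicate 2 or 3 of GFP virus in wt (0.0543 and 0.0638), replicate 3 of Myc virus in ko (0.0561) or replicate 2 or 3 of Myc virus in wt (0.0550 and 0.0622).

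P4hb, a disulfide isomerase that is also a subunit of collagen prolyl hydroxylase, read 6099, 6572 and 6336 in wt and 5419, 5866 and 6149 in ko with GFP virus, and 6029, 6106 and 6378 against 5471, 5520 and 5048 with Myc virus. Syvn1 read 1181, 1192 and 1317 against 1132, 1090 and 1160 with GFP virus, and 1251, 1160 and 1196 against 1068, 1044 and 1005 with Myc virus. Syvn1 was free of overlap under both viruses and P4hb with Myc virus. Each was 1.12-fold lower (95% interval 1.05 to 1.20 for both; adjusted p = 0.0321 for P4hb and 0.0232 for Syvn1), and with the block both passed within Myc virus (0.0441 and 0.0327). Of the 12 fits without an array, P4hb kept its call in the 4 without replicate 3 of GFP virus in ko, replicate 1 of GFP virus in wt, or replicate 1 or 2 of Myc virus in ko (adjusted p in the other 8 0.0509 to 0.0826); it also lost it with arrays centred on their medians (0.0731) or all probe sets fitted together (0.0533). Syvn1 lost its call without replicate 2 of GFP virus in ko (0.0588), replicate 3 of GFP virus in wt (0.0536), replicate 3 of Myc virus in ko (0.0569), or replicate 1 or 3 of Myc virus in wt (0.0593 and 0.0510), and also with a second quantile normalization (0.0668) or a trended and robust variance prior (0.0619).

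Atf6 read 1234, 1599 and 1465 in wt and 1581, 2094 and 2020 in ko with GFP virus, and 1371, 1677 and 1505 against 1784, 2047 and 1637 with Myc virus. Each ko array exceeded the wt array of its number, although the groups overlapped under both viruses. Atf6 was 1.26-fold higher (95% interval 1.09 to 1.46, adjusted p = 0.0480), and with the block the rise also passed within GFP virus (0.00875). The call for the mean held in 4 of 12 fits without an array, those without replicate 1 of GFP virus in ko, replicate 2 of GFP virus in wt, replicate 3 of Myc virus in ko or replicate 2 of Myc virus in wt, with adjusted p of 0.0793 to 0.109 in the other 8; it was lost too with arrays centred on their medians (0.106) or all probe sets fitted together (0.0827). Creld2, a secreted target of Atf6, read 2143, 2270 and 1859 in wt and 2236, 2397 and 2703 in ko with GFP virus. With Myc virus it read 2078, 2104 and 1867 in wt and 2353, 2329 and 2201 in ko. Creld2 was 1.15-fold higher in 6 of 6 pairs (adjusted p = 0.0656) and rose with the block (0.0384). Dnajc3 was 1.17-fold lower (0.0747), Hspa5 1.02-fold lower (0.789) and Xbp1 1.10-fold lower in 6 of 6 pairs (0.318).

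**Figure D4:**
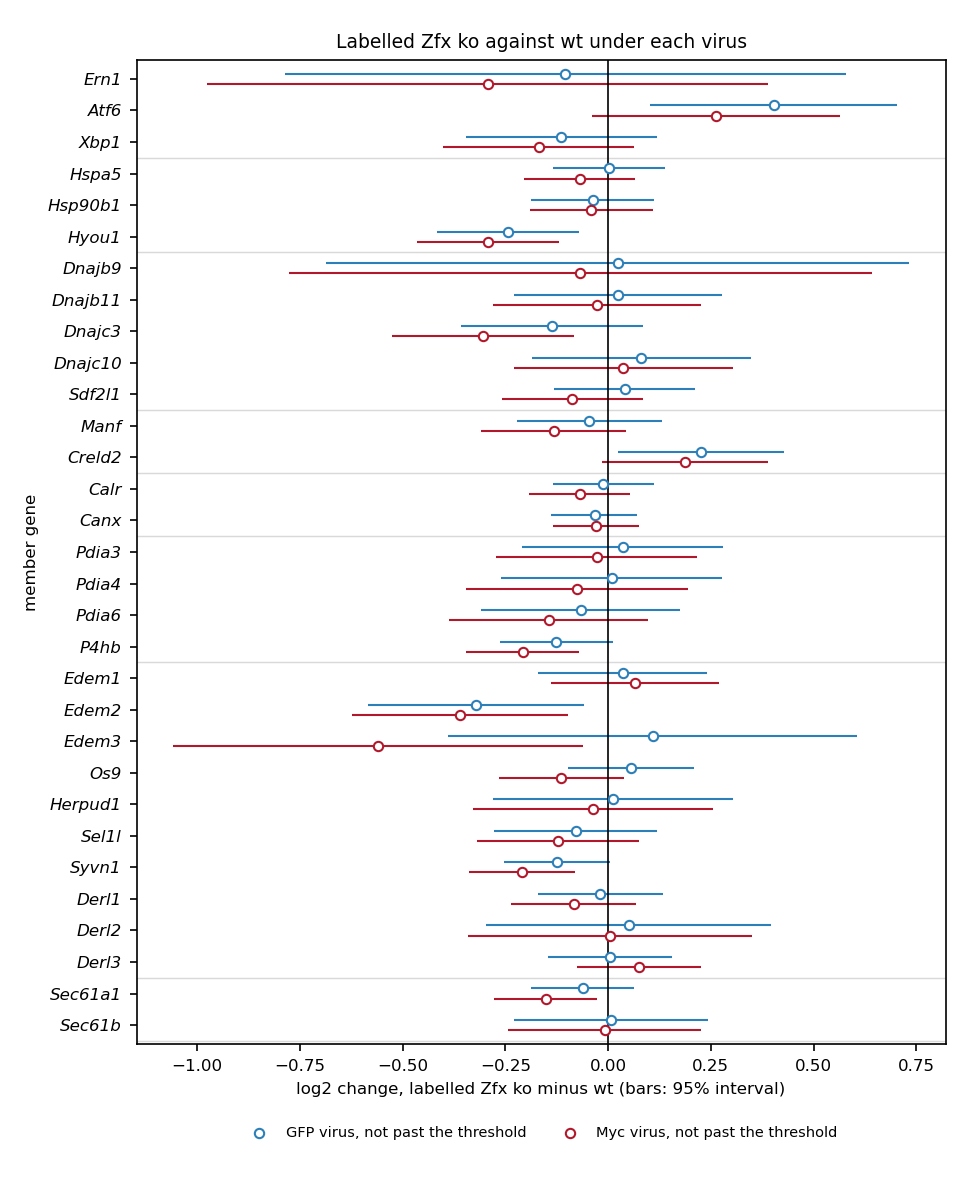
Log2 change in the groups labelled Zfx ko against wt (x axis) for the 31 members (y axis) with GFP virus and with Myc virus; points are limma estimates and bars 95% intervals. No point is filled because 0 members passed within a single virus; Hyou1 and Edem2 lie below 0 and Atf6 above 0 under both.

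Marker genes differed by genotype too. Over both viruses, 4 of 5 megakaryocyte genes and 5 of 8 erythroid genes rose and 5 of 13 mast cell and basophil genes fell in ko (9 of 13 with the block). Among all genes 4.73% rose and 7.34% fell in this comparison. Of 5 promyelocyte granule genes Ms4a3 and the elastase gene Elane fell (4 genes with the block), and of 14 neutrophil maturation genes 3 rose and 1 fell. Of 8 monocyte and macrophage genes 0 passed (2 rose and 1 fell with the block), and 0 passed in the eosinophil, plasma cell and B cell, T cell and stromal lists, with or without the block. The erythroid rise differed by virus: 0 of 8 genes passed with GFP virus alone and 4 with Myc virus alone (1 and 6 with the block). Their median log2 changes were 0.42 and 1.28. Of the megakaryocyte genes 0 passed within a single virus (4 in each with the block). The summed megakaryocyte genes ranged over 7139 to 13860 in wt and 20530 to 26770 in ko with GFP virus, and over 1763 to 7135 and 5367 to 16220 with Myc virus; the mast cell and basophil sums ranged over 21650 to 29470 and 13980 to 19910 with GFP virus, and over 11280 to 25130 and 6195 to 10080 with Myc virus. Their part in the members' differences was not tested.

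Whether the Myc change itself differed by genotype was tested as an interaction. It passed for 0 members and 0 of all genes (0% called, limma; with the block 1 gene, 0.00502%), and 0 members had an unadjusted p under 0.05 against 343 of all genes (1.72%). The estimates were below 0, the sign of a lower Myc change in ko, in 28 of 31 members and in 48.6% of all genes. Their median was -0.063 on the log2 scale against 0.003 for all genes. By pair, the median Myc change of the members was lower in ko than in wt only in pair 3 (-0.30 against -0.12). It was 0.007 against -0.016 in pair 1 and -0.08 against -0.11 in pair 2. The lowest interaction estimate was that of Edem3 at -0.67, which was -0.33 without replicate 3 of Myc virus in wt.

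Genes of related pathways outside the 31 were counted for comparison. With Myc over both genotypes 13.2% of all genes rose and 8.07% fell. Among genes above the median intensity the shares were 23.2% and 13.9%. Of 21 measured cytosolic and mitochondrial chaperones, 16 rose with Myc over both genotypes and 0 fell, with a median log2 change of 0.41, and the count was 16 under both other scalings and in every fit without 1 array. Examples were Hspd1, the mitochondrial chaperonin (1.5-fold), Clpp, a mitochondrial protease subunit (1.47-fold), Trap1, the mitochondrial Hsp90 (1.42-fold) and Cct2, a subunit of the cytosolic chaperonin (1.28-fold), with adjusted p of 0.000208, 0.000151, 0.000270 and 0.000212. The difference between these lists and the members was not tested. Of 26 other ER folding enzymes and cofactors 6 rose and 3 fell, beside 23.2% and 13.9% of genes above the median intensity. The counts were 6 and 1 with arrays centred on their medians and 6 and 5 with the block. Without 1 array, 6 to 7 rose and 0 to 4 fell. Those with the lowest p were Mogs, the glucosidase that starts glycan trimming (1.43-fold higher, adjusted p = 4.61e-05) and Fkbp11, an ER prolyl isomerase (1.51-fold higher, 0.000299). Sil1, which exchanges nucleotides on Hspa5, rose 1.22-fold (0.000586).

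In a list that joined the arm of the sensor PERK with genes of integrated stress, 1 of 11 rose and 2 fell with Myc (2 and 3 with the block). Which of these genes answered to PERK was not tested. The sensor kinase Eif2ak3 (PERK) was 1.19-fold lower (adjusted p = 0.00489), the transcription factor Ddit3 (CHOP) 1.10-fold lower (0.0472) and the pseudokinase Trib3 1.16-fold higher (0.0292); with a second quantile normalization or with arrays centred on their medians 0 of the list rose. Of 11 regulators beside Ern1 and Atf6, 2 rose and 1 fell (2 and 3 with the block): Rtcb, the ligase that joins the spliced Xbp1 message, was 1.39-fold higher (0.000678), the protease Mbtps1 that cleaves Atf6 1.19-fold higher (0.00738) and Tmbim6, a suppressor of ER stress death, 1.21-fold lower (0.00151). Of 21 other degradation genes 0 rose and 3 fell (1 and 4 with the block). Of 21 other translocon and targeting genes 4 rose and 2 fell (2 and 1 with arrays centred on their medians), with Sec61a2 1.43-fold higher and Tram2 1.46-fold lower (0.000436 and 0.00103). None of the 12 oligosaccharyl transferase genes passed (1 with the block).

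Under loss of Zfx by label, several genes of these lists changed over both viruses by more than any member did. In that comparison 7.34% of all genes fell and 4.73% rose. Among genes above the median intensity the shares were 12.8% and 7.15%. Sec61a2, a second alpha subunit of the translocon, was 2.04-fold lower (adjusted p = 9.53e-06), and it was the 1 of 21 translocon and targeting genes to pass (1 rose and 4 fell with the block). Ube2j1, the ubiquitin-conjugating enzyme that works beside Syvn1, was 1.85-fold lower (7.65e-07), Ngly1, which strips glycans from retrotranslocated proteins, 1.5-fold lower (0.00392) and Herpud2 1.45-fold lower (0.000211), so that 4 of 21 other degradation genes fell and 1, Erlin2, rose (8 and 3 with the block). Mogs was 1.34-fold lower and Txndc11 1.31-fold lower, while Prdx4, an ER peroxiredoxin, was 1.46-fold higher (0.000112, 0.00342 and 0.00691), among 4 falls and 1 rise in 26 other folding genes (6 and 2 with the block). Trib3 and Nupr1, both induced in stressed cells, were 1.27-fold and 1.31-fold higher (0.00457 and 0.0215). They were the 2 of 11 genes of the PERK and integrated stress list that rose (6 with the block). Of 11 regulators beside Ern1 and Atf6, 1 rose and 3 fell (1 and 4 with the block, 0 and 2 with arrays centred on their medians): Bak1, a Bcl-2 family protein of cell death, was 1.21-fold lower (0.00808), Rtcb 1.19-fold lower (0.0372), Tmbim6 1.12-fold lower (0.0341) and Creb3l1, a membrane-bound transcription factor, 1.22-fold higher (0.0193). Of the cytosolic and mitochondrial chaperones 0 of 21 passed (1, Dnajb1, fell with the block), and 0 of the 12 oligosaccharyl transferase genes passed.

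**Figure D5:**
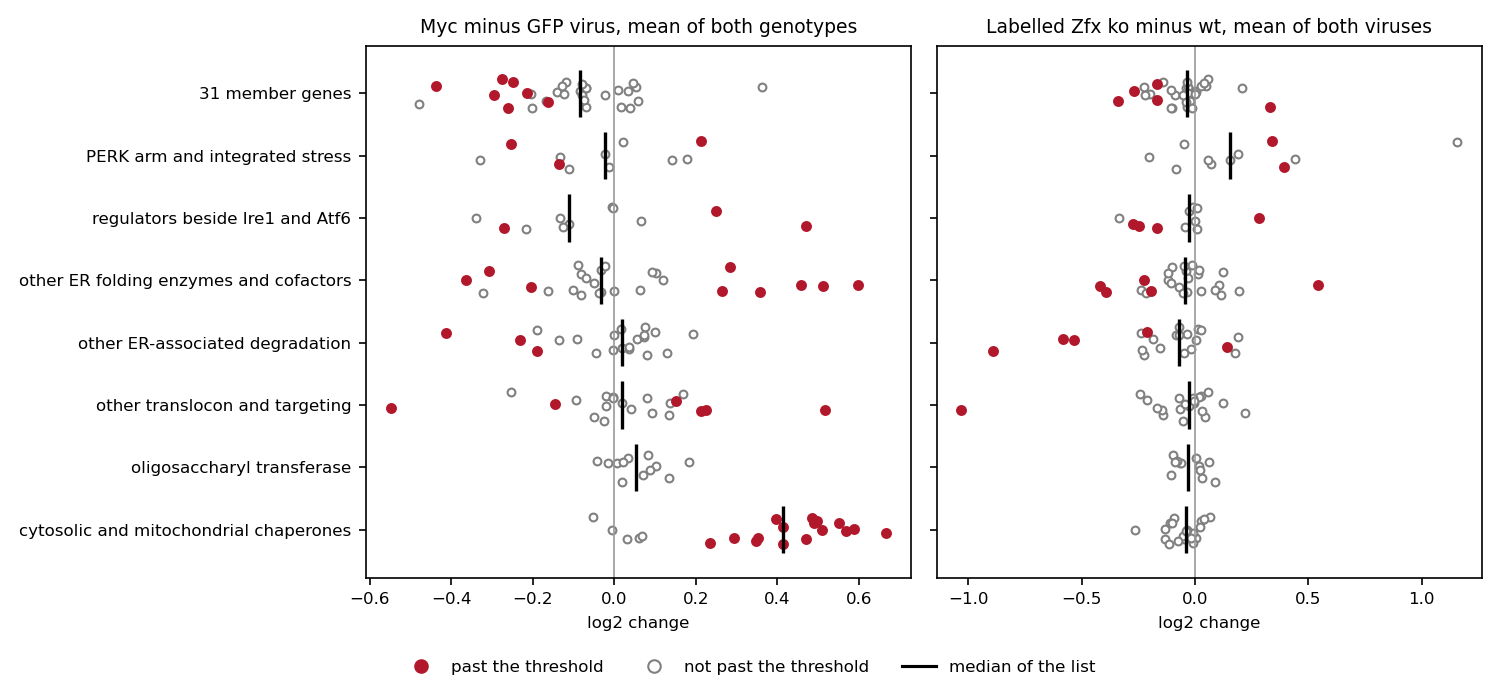
Log2 change of each gene (points) in the 31 members and in 7 related lists, for Myc virus over both genotypes (left) and for groups labelled Zfx ko over both viruses (right); filled points passed the threshold and the black bar is the list's median. The cytosolic and mitochondrial chaperones sit to the right with Myc at a median of 0.41, and the members at -0.08.

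The Myc changes were also read against the promoter windows. Among the 11 members with an ERSE or ERSE-II in the window, 2 fell (Dnajc3 and Calr) and the median log2 change over both genotypes was -0.07, and among the 15 with neither, 5 fell (Edem1, Sel1l, Os9, Dnajc10 and Xbp1) and the median was -0.17. Of the members whose matches are printed above, Dnajc3, Calr and Herpud1 were 1.23-fold, 1.12-fold and 1.15-fold lower. Hspa5, Hsp90b1, Creld2, Canx, Pdia6, Syvn1 and Derl3 had changes between 1.05-fold lower and 1.04-fold higher. With the block Herpud1 fell too (adjusted p = 0.00443). Of the members with neither element, Dnajb9 then fell (0.000325) and Edem3 rose (0.0482). These are descriptions of letters in a window and of changes, with no test between the sets. Of the members that passed under loss of Zfx, Syvn1 had an ERSE while Edem2 and P4hb had neither element. None of these 3 windows held AGGCCT, which was in 10.3% of all windows. Hyou1 and Atf6, which also passed, had no window.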

How the data were processed

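RNA (200 ng a sample) was measured on 12 arrays, 3 in each of 4 groups taken from the sample titles. The authors deposited linear intensities, 1 value for each probe set on each array, processed with RMA (a background, quantile and probe-summary method) per the submitters' processing notes; the software is not given in the sources used here. Log2 of the deposited intensities was taken, with no pseudocount and no filter. Probe sets with exactly 1 gene symbol (21789 of 35556; 1621 had several and 12146 none) were reduced to the brightest per gene, leaving 19938 genes. The fit used limma 3.58.1 in R 4.3.3 (lmFit, eBayes; 4 group means over 12 arrays, 8 residual degrees of freedom before moderation), with Benjamini-Hochberg adjustment over all genes and 0.05 as the threshold; the code was tested on simulated data. Fold intervals are 95% intervals of single genes. Array number limits the precision.

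Same-numbered arrays of different groups correlated at 0.401 to 0.848 in their deviations from group means (median 0.639, 18 pairs; different numbers -0.422), and 12 of 12 arrays were closest to their own number, so the numbers, which come from the titles, were read as pairing the arrays. Blocked values are printed only where a call or, by over 1.5 times, a count differed. All 31 members were named; full values went to those past the threshold or, with fewer than 5, the lowest p, and related lists gave up to 4 genes per comparison by lowest p. The members, lists, marker sets and motifs were chosen with earlier results of these data known. Members read in detail outside this rule (Hspa5, Dnajb9) were chosen after their values were seen. Alternatives were the block, a second quantile normalization, median centring, genes above the median intensity, all probe sets together, a trended and robust prior, and leaving out each array. Promoters are from RefSeq (GRCm38.p6), matched by gene identifier; protein sequences were not analysed here.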

Additional observations from a re-analysis of the deposited data

How the results depend on the processing

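No member changed direction under any alternative in a comparison where it passed. The numbers of members that passed moved as follows. Blocking on replicate number took the count from 1 to 4 for Myc in Zfx wt, from 4 to 9 for Myc in ko, from 0 to 2 for Zfx with GFP virus and from 0 to 4 for Zfx with Myc virus; beside the calls given with the results it changed no other call. A second quantile normalization gave 2 for Myc in wt and 2 for Zfx with Myc virus. Centring arrays on their medians gave 4 in place of 7 for Myc over both genotypes and 3 in place of 5 for Zfx over both viruses. Fitting all probe sets together gave 2 for Myc in ko and 3 for Zfx over both viruses. Leaving out each array gave 0 to 2 for Myc in wt, 0 to 4 for Myc in ko, 5 to 8 for Myc over both genotypes, 1 to 5 for Zfx over both viruses and 0 for the others. The cause of these moves was not tested, apart from fewer arrays or more tests in the settings so built. Edem1, Dnajc3, Calr and Os9 with Myc over both genotypes and Hyou1 with loss of Zfx passed in all 18 settings. Of the other calls for these means, Xbp1 and Dnajc10 lost theirs in 9 of 12 fits without an array, and Atf6 and P4hb in 8. Edem2 lost its call in 6, Syvn1 in 5 and Sel1l in 0. Each group had 3 arrays, and the settings that lost a call are given with each gene.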
